A study of Caenorhabditis elegans with 8 samples.

Results

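The genes nhr-57 (T05B4.2) and F22B5.4, which have long served as readouts of HIF-1 activity in the nematode Caenorhabditis elegans, were followed across 4 strains by RNA sequencing. They were taken by gene identifier, not by their values here, and are 2 of the 45461 features in the table. The strains were the wild type N2, egl-9(lf) carrying the allele sa307, egl-9(lf) hif-1(lf) carrying sa307 and ia4, and cyp-36A1(lf); egl-9(lf) carrying gk824636 and sa307; the last pair are called the hif-1 and the cyp-36A1 double mutant. Each genotype was 1 strain (N2, JT307, CB6088 and MT22836). No hif-1 or cyp-36A1 single mutant was analysed here, so each double mutant was read against egl-9(lf). Each strain gave 2 libraries of polyadenylated RNA, each from 150 very young adults kept at 22.5 °C on OP50 bacteria. RNA came from whole animals, in which a change in the number of expressing cells and a change in RNA per cell cannot be told apart.

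HIF-1 is the oxygen-regulated alpha subunit of the hypoxia-inducible transcription factor. In normal oxygen the prolyl hydroxylase EGL-9 modifies HIF-1 so that the VHL-1 ubiquitin ligase can mark it for degradation, and without EGL-9 the factor stays active. CYP-36A1 is a cytochrome P450 enzyme. The nuclear hormone receptors, to which nhr-57 belongs, are transcription factors, many of which bind small lipophilic ligands, and the family is greatly expanded in this nematode.

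Library totals ranged from 11925027 to 22269111 expected counts, and the 21372 features counted in any library were tested. All 12 markers listed for muscle, neurons, intestine, epidermis, germ line and yolk had counts in every library, though dpy-7 of the epidermis had at most 8 in any. Levels are given as CPM, a count as a share of its library scaled up to a common total and adjusted between libraries by TMM, and between genes as FPKM, which also divides by transcript length. The targeted hif-1 RNA was at 45.2 and 43.5 CPM in the hif-1 double mutant against 186 and 188 CPM in the wild type. cyp-36A1 RNA was at 4.78 and 19.4 CPM in the cyp-36A1 double mutant against 29.4 and 55 CPM in egl-9(lf), and egl-9 RNA was higher in egl-9(lf), at 87.6 and 101 CPM, than in the wild type, at 27.1 and 25.9 CPM, so its level does not check that label. The summed level of the yolk genes vit-2 and vit-6 was 32800 and 29700 CPM in egl-9(lf) and 41100 to 49800 CPM in the other strains, and its part in the results was not tested.

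Both genes were low in the wild type, high in egl-9(lf), low again in the hif-1 double mutant and high in the cyp-36A1 double mutant. nhr-57 stood at 2.66 and 4.08 CPM in the wild type (59 and 48 counts) but reached 126 and 151 CPM in egl-9(lf). It stood at 2.39 and 2.55 CPM in the hif-1 double mutant and at 142 and 148 CPM in the cyp-36A1 double mutant. The 4 libraries with the egl-9 mutation and without the hif-1 mutation lay far above the other 4, with no overlap.

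F22B5.4, for which no role is given here, was at 4.97 and 6.63 CPM in the wild type (110 and 78 counts) but reached 84.4 and 83.9 CPM in egl-9(lf). It was at 6.22 and 8.83 CPM in the hif-1 double mutant and at 132 and 116 CPM in the cyp-36A1 double mutant. The wild type and the hif-1 double mutant overlapped, whereas both libraries of the cyp-36A1 double mutant were above both egl-9(lf) libraries.

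**Figure D1:**
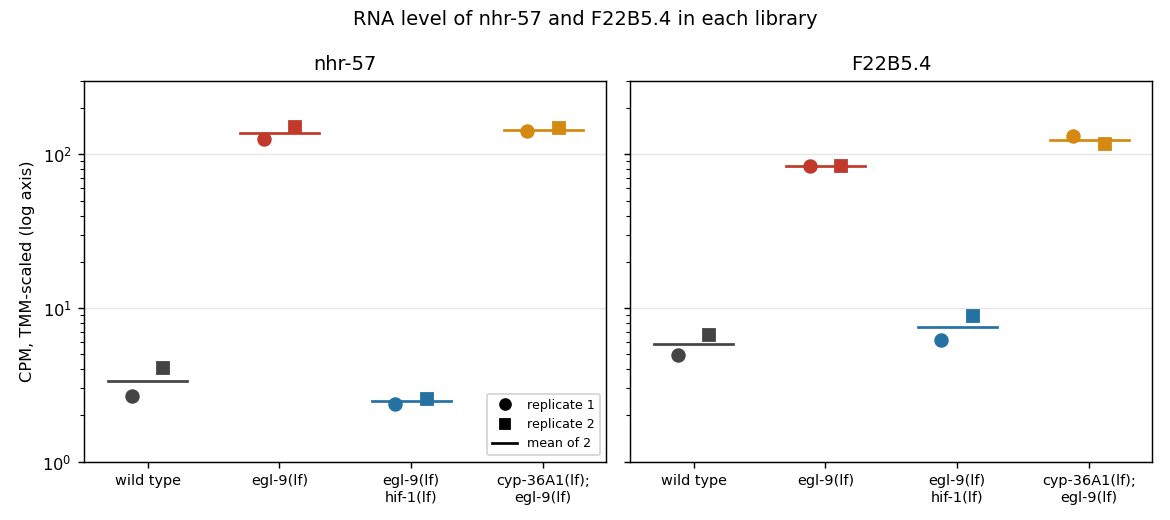
CPM of nhr-57 (left) and F22B5.4 (right) on a log axis in the 4 strains; circles are replicate 1, squares replicate 2 and lines the mean of 2. Both genes sit below 10 CPM in the wild type and the hif-1 double mutant and above 80 CPM in the other strains.

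The first comparison asked how the genes respond to loss of EGL-9. nhr-57 rose 42.7-fold in egl-9(lf) over the wild type, a log2 fold change of 5.42 ± 0.17 (SE, 2 libraries per strain; 95% interval 5.08 to 5.75), with an adjusted p of 2.4e-214 in the quasi-likelihood test of edgeR (Benjamini-Hochberg adjusted). F22B5.4 rose 14.8-fold, a log2 fold change of 3.89 ± 0.16 (95% interval 3.58 to 4.2), with an adjusted p of 2.5e-123 by the same edgeR test. Of all features tested, 7.42% were called higher in this comparison, and 4.97% under the revised spread estimate. The default edgeR fit took each gene's spread from a trend across genes, so replicate spread particular to a gene does not enter these p-values. With edgeR's revised estimate, in which each gene's own spread enters, the adjusted p was 5.7e-09 for nhr-57 and 6.5e-08 for F22B5.4.

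The second comparison asked how much of that level depended on hif-1. nhr-57 fell by 5.8 on the log2 scale in the hif-1 double mutant relative to egl-9(lf), 55.7-fold, with an adjusted p of 1.8e-234 by the default edgeR fit and 3.8e-09 by the revised one. F22B5.4 fell by 3.47, 11.1-fold, with an adjusted p of 6.0e-107 by the default edgeR fit and 1.3e-07 by the revised one. In this comparison 6.09% of features were called lower by the default fit and 4.25% by the revised one. Both comparisons share the egl-9(lf) libraries.

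What remained without hif-1 was close to the wild-type level. nhr-57 differed from the wild type by -0.39 ± 0.22 on the log2 scale (95% interval -0.81 to 0.04), with an adjusted p of 1 by edgeR, although both libraries of the hif-1 double mutant were below both wild-type libraries. F22B5.4 differed by 0.42 ± 0.17 (95% interval 0.08 to 0.76), with an adjusted p of 0.84 by edgeR, and its libraries overlapped. By replicate number, the log2 ratio of the hif-1 double mutant to the wild type was 0.33 and 0.41 for F22B5.4 and -0.16 and -0.68 for nhr-57. Without replicate 1 of the hif-1 double mutant, the F22B5.4 difference was 0.64 with an adjusted p of 0.029 by edgeR. In this comparison 0.707% of features were called in either direction.

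The next comparison asked whether the high level needs cyp-36A1. nhr-57 differed between the cyp-36A1 double mutant and egl-9(lf) by 0.07 ± 0.13 on the log2 scale, with an adjusted p of 1 by edgeR. Its 95% interval was -0.18 to 0.32 by the default fit and -0.23 to 0.37 by the revised one, and the sign turned to -0.02 without egl-9(lf) replicate 1. F22B5.4 was 1.48-fold higher in the cyp-36A1 double mutant, a log2 fold change of 0.56 ± 0.13 (95% interval 0.3 to 0.82), with an adjusted p of 0.0011 by edgeR. Higher calls made up 1.63% of features in this comparison by the default fit and 0.664% by the revised one.

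The call on F22B5.4 depended on how its spread was estimated. The adjusted p was 0.026 by DESeq2 but 0.11 by edgeR's revised estimate, whose 95% interval was 0.24 to 0.88. The call was also lost without egl-9(lf) replicate 1 (edgeR adjusted p 0.056), without egl-9(lf) replicate 2 (0.069) and without replicate 1 of the cyp-36A1 double mutant (0.087). By replicate number, the log2 ratio of the cyp-36A1 double mutant to egl-9(lf) was 0.65 and 0.47 for F22B5.4 and 0.18 and -0.03 for nhr-57. Whether the genes differ from each other in this response was not tested. The summed level of the intestinal markers elt-2 and ges-1 was 42.6 and 39.3 CPM in the cyp-36A1 double mutant against 28.3 and 31 CPM in egl-9(lf), with no overlap. For any gene or sum, separation of 2 libraries from 2 gives a p of 0.333 at best in an exact permutation test (two-sided). elt-2 and ges-1 had log2 fold changes of 0.53 and 0.44 in this comparison, beside 0.56 for F22B5.4, with adjusted p-values of 0.27 and 0.21 by edgeR. The summed yolk level given above was also higher in both libraries of the cyp-36A1 double mutant than in both of egl-9(lf). Muscle and neuron sums were lower with no overlap, and epidermis and germ line sums overlapped. The epidermis sum was nearly all col-19, with dpy-7 at or under 0.433 CPM in every library, and the muscle sum was mostly unc-54. In the hif-1 double mutant against egl-9(lf), where F22B5.4 fell, elt-2 was at 0.61 (edgeR adjusted p 0.04, revised 0.18) and ges-1 at -0.05. The part of intestine or yolk in the F22B5.4 difference was not tested.

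Against the wild type, the cyp-36A1 double mutant had 44.8-fold more nhr-57 RNA and 21.9-fold more F22B5.4 RNA, with adjusted p-values of 1.2e-219 and 4.0e-158 by edgeR. Against the hif-1 double mutant it had 58.5-fold and 16.4-fold more, with adjusted p-values of 7.3e-240 and 7.4e-141 by edgeR. Higher calls made up 7.17% and 5.47% of features in these comparisons, which share libraries with those above. In order of mean level, nhr-57 ran from the hif-1 double mutant through the wild type and egl-9(lf) to the cyp-36A1 double mutant, and in neither the lower pair nor the upper pair was a difference called. F22B5.4 ran from the wild type through the hif-1 double mutant and egl-9(lf) to the cyp-36A1 double mutant, and here the upper pair was called apart by the default fit.

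**Figure D2:**
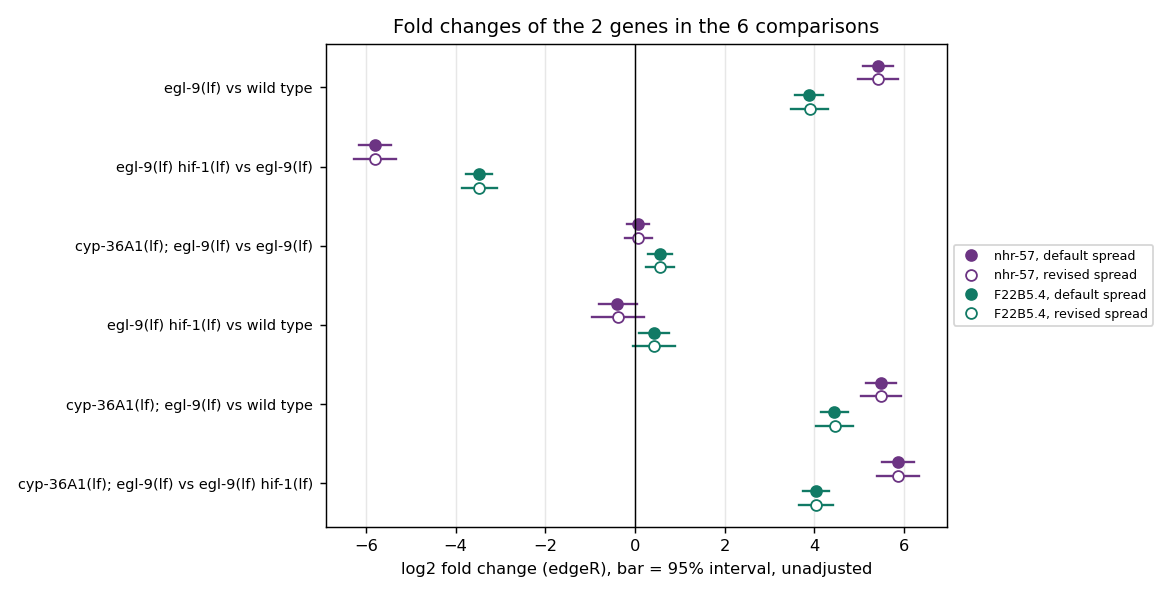
Log2 fold changes of nhr-57 (purple) and F22B5.4 (green) in the 6 comparisons, with unadjusted 95% intervals; filled points are the default edgeR fit and open points the revised spread estimate. In the cyp-36A1 double mutant against egl-9(lf), the nhr-57 interval spans 0 and that of F22B5.4 lies above 0 in both fits.

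Per length, F22B5.4 RNA was the more abundant in every library. Its mean FPKM was 9.54 ± 1.88 (SD, n = 2) in the wild type but 157 ± 2.73 in egl-9(lf), against 2.44 ± 0.714 and 105 ± 12.2 for nhr-57. The ratio of F22B5.4 to nhr-57 FPKM was 4.25 and 3.7 for the wild type, only 1.65 and 1.37 for egl-9(lf), 5.94 and 7.9 for the hif-1 double mutant, and 2.29 and 1.93 for the cyp-36A1 double mutant. The 4 strains did not overlap in this ratio, though with 2 libraries against 2 an exact permutation test (two-sided) cannot give a p below 0.333. By mean FPKM, nhr-57 moved from rank 106 of 283 nhr genes in the wild type to rank 1 in egl-9(lf), was at rank 121 in the hif-1 double mutant, and was again at rank 1 in the cyp-36A1 double mutant.

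The rise of nhr-57 was not shared by most of its family. Most features of any kind were not called higher either, and many nhr genes had few counts. Of 282 other nhr genes, 260 were tested, and 8 were called higher and 28 lower in egl-9(lf) by edgeR, which is 3.08% and 10.8% of those tested beside 7.42% and 11.1% of all features. At 2-fold or more, 5 were higher and 17 lower, beside 3.14% and 7.64% of all features. The other nhr genes with the largest calls upward were low: nhr-251 at 0.0452 and 0.17 CPM in the wild type but 1.08 and 0.901 CPM in egl-9(lf), and nhr-155 at 0.135 and 0.255 against 1.15 and 1.05 CPM. nhr-62 rose by 2.23 ± 0.29 on the log2 scale (edgeR adjusted p 7.8e-13), from 1.94 and 3.14 to 7.9 and 15.4 CPM. nhr-74 fell by 6.2 ± 0.75 (edgeR adjusted p 1.2e-38), from 9.35 and 6.37 to 0.0603 and 0.15 CPM, and was at 6.48 and 5.53 CPM in the cyp-36A1 double mutant. nhr-73 and nhr-113 (revised adjusted p of edgeR 0.064) were at 0 in both egl-9(lf) libraries and at or under 1.02 CPM in the wild type.

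nhr-46, a nuclear hormone receptor gene that the study also examined, was at 36.9 and 35 CPM in the wild type but 48.6 and 49.6 CPM in egl-9(lf). Its log2 fold change of 0.45 ± 0.15 passed the test (edgeR adjusted p 0.018, revised 0.032), a far smaller size than the 5.42 of nhr-57. Relative to egl-9(lf), 25 nhr genes were called higher and 11 lower in the hif-1 double mutant, beside 11% and 6.09% of all features, and 3 higher and 13 lower in the cyp-36A1 double mutant, beside 1.63% and 2.3%.

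Other genes induced by HIF-1 moved with the pair. All 8 genes of a list of such targets were called higher in egl-9(lf) and all 8 lower in the hif-1 double mutant, beside 7.42% and 6.09% of all features, with median log2 fold changes of 3.99 and -3.95 where the median over all features was 0. The list was assembled with earlier results of these data known and is not independent evidence. sqrd-1, a sulfide quinone oxidoreductase, rose by 6.55, and rhy-1, an acyltransferase-like inhibitor of HIF-1, by 5.66. cysl-2, a cysteine synthase-like enzyme, rose by 5.53 and the flavin monooxygenase gene fmo-2 by 5.03. The rises of cdo-1, encoding cysteine dioxygenase, at 2.95, phy-2, a collagen prolyl 4-hydroxylase subunit, at 2.9, cyp-36A1 at 2.55 and egl-9 at 1.83 were smaller than that of F22B5.4 at 3.89.

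In the cyp-36A1 double mutant against egl-9(lf), the default edgeR fit called 2 of the 8 genes lower and none higher, in a comparison where 2.3% of features were called lower. The called genes were cyp-36A1 itself, which fell by 1.81, and sqrd-1, which fell by 0.45. Of the 8, 3 had an unadjusted p under 0.05 in edgeR, and DESeq2 called 0. Under the revised estimate neither was called (edgeR adjusted p 0.086 and 0.24), where 0.903% of features were called lower, and fmo-2 was instead called higher, at 0.87 with an adjusted p of 0.04. F22B5.4, at 0.56 in this comparison, and fmo-2 were the only genes of the 10 called higher in either fit.

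**Figure D3:**
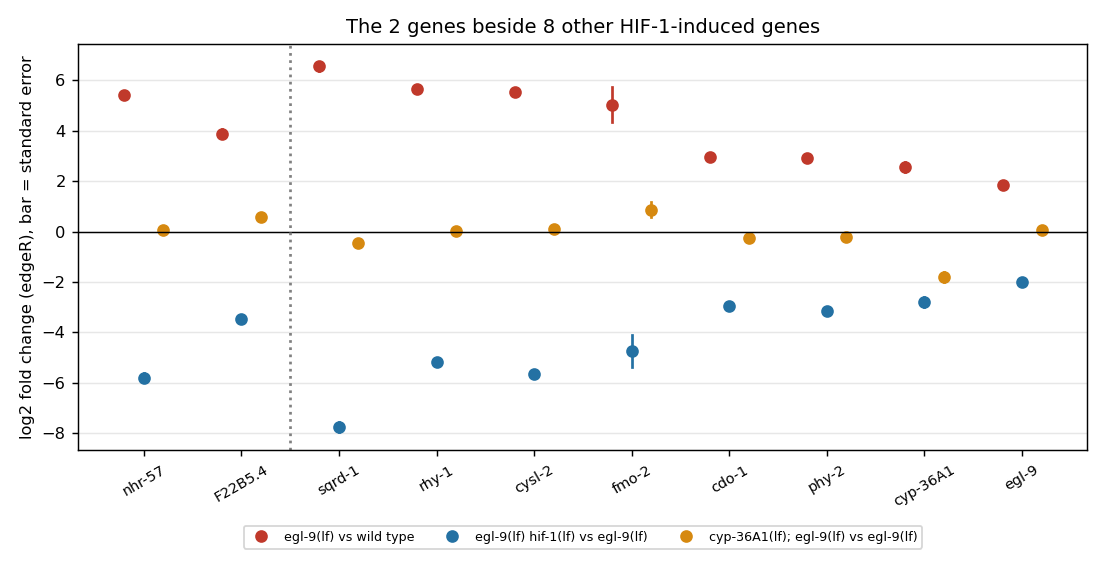
Log2 fold changes with standard errors (default edgeR fit) of nhr-57 and F22B5.4, left of the dotted line, and of 8 other HIF-1-induced genes. Red points are egl-9(lf) against the wild type, blue the hif-1 double mutant against egl-9(lf), and orange the cyp-36A1 double mutant against egl-9(lf); only sqrd-1, rhy-1 and cysl-2 have a red point above that of nhr-57 at 5.42.

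Among 7 components and regulators of the pathway, 3 were called higher in egl-9(lf): egl-9, rhy-1 and cysl-1, a cysteine synthase-like protein that binds EGL-9, beside 7.42% of all features. The same 3 and hif-1 were called lower in the hif-1 double mutant, beside 6.09%. aha-1, which encodes the partner subunit of HIF-1, vhl-1 and swan-1, which encodes an EGL-9-binding WD-repeat protein, had log2 fold changes of 0.3, 0.14 and 0.3 in egl-9(lf), none of which passed the test. No gene of this list was called by edgeR in the cyp-36A1 double mutant against egl-9(lf), where 0 of 7 had an unadjusted p under 0.05 and DESeq2 called 0, beside 1.63% of all features called higher and 2.3% lower by edgeR.

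The profiles most like those of the pair were sought among 12718 features with a mean of at least 1 CPM, by the distance between log2(CPM + 0.5) profiles over the 8 libraries, each centred on its own mean. For nhr-57 they were oac-54 (distance 0.55), cysl-2 (0.55), nspe-3 (0.65), R08E5.1 (0.75) and lpr-6 (0.81), with Pearson r of 0.995 to 0.998. For F22B5.4 they were mpst-3 (0.74), col-78 (0.82), F46C5.1 (0.86), ugt-65 (0.93) and T05B4.4 (0.94), with r of 0.989 to 0.996. The 8 libraries fall into a low and a high set for these genes, so r mostly reflects that step and is a description. For nspe-3, col-78 and T05B4.4, with no count in the wild type, the low level is set by the 0.5 added to CPM. Their distances depend on that constant, and they pass the 1 CPM limit only through the strains where they are high. oac-54, at 0.723 and 1.27 CPM in the wild type, was at 46 and 61.2 CPM in egl-9(lf), and mpst-3 went from 21.7 and 21.4 to 306 and 375 CPM. For F46C5.1, as for F22B5.4, both libraries of the cyp-36A1 double mutant lay above both egl-9(lf) libraries, at 50 and 46.7 CPM beside 19.5 and 23.7 CPM in egl-9(lf). nspe-3 and col-78 were at least 234-fold and 80.9-fold higher in egl-9(lf), taking 3 counts over both wild-type libraries as the limit. These rises are larger than the 42.7-fold of nhr-57 and the 14.8-fold of F22B5.4.

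In the WBcel235 annotation, nhr-57 lies on chromosome V at 4131889 to 4135102 on the plus strand, with 8 exons in a transcript of 1559 nt encoding 374 amino acids. F22B5.4 lies on chromosome II at 8449710 to 8452742 on the plus strand and encodes 164 amino acids. The files were made on the ce10 build, so these positions serve only to place the genes and order their neighbours.

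Some neighbours of nhr-57 changed in the same direction. Of the 10 protein-coding genes flanking it, 3 were called higher in egl-9(lf) and none lower, beside 7.42% and 11.1% of all features. The same 3 were called lower in the hif-1 double mutant against egl-9(lf), beside 6.09% of all features. In egl-9(lf) against the wild type, the revised estimate called 2 higher, beside 4.97% of all features, and DESeq2 called 2. T05B4.13, on the other strand 4353 bp away, was at 0.0452 and 0.0849 CPM in the wild type but at 19.2 and 28.5 CPM in egl-9(lf), 0.126 and 0 CPM in the hif-1 double mutant, and 41.6 and 39 CPM in the cyp-36A1 double mutant. From 2 wild-type counts, its rise was 396-fold with an exact 95% counting interval of 109 to 3280. phat-4, next to nhr-57 on the same strand, went from 10.3 and 14.4 to 19.5 and 20.3 CPM (log2 fold change 0.71 ± 0.21; edgeR adjusted p 0.0064, revised 0.052), and was at 9.97 and 10.1 CPM in the cyp-36A1 double mutant.

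lgc-1, a ligand-gated ion channel gene on the other side, overlaps the end of nhr-57 by 75 bp on the same strand, and reads in that stretch could belong to either gene. It was at 0 and 0.17 CPM in the wild type but 3.68 and 3.23 CPM in egl-9(lf), which is 2.93% and 2.14% of the nhr-57 CPM in those libraries, so its rise is uncertain. From 2 wild-type counts, the ratio was 59 with an exact 95% counting interval of 15.9 to 493. T05B4.4, a pseudogene on the plus strand 2286 bp from nhr-57, had no count in the wild type but 3.74 and 4.21 CPM in egl-9(lf), at least 44.6-fold higher. The expected counts of T05B4.4 in egl-9(lf), 62.21 and 56.44, were not whole, nor were those of T05B4.13, at 318.66 and 379.09. In replicate 2 of the hif-1 double mutant they were 1.94 and 0.06. Reads may thus have been divided between T05B4.4 and T05B4.13, which was not tested, so the rise of T05B4.4 is uncertain. T05B4.4 was not one of the 10 neighbours and is named because its profile was among those most like F22B5.4.

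Of the 10 neighbours of F22B5.4, 1 was called higher and 2 lower in egl-9(lf), counts near the 7.42% and 11.1% of all features. The lipase-related gene lips-10 rose by 1.56 ± 0.25, whereas the acid phosphatase gene acp-3 fell by 1.41 ± 0.28 and F22B5.5, the next gene at 511 bp, fell by 1.49 ± 0.29 (edgeR adjusted p 9.9e-09, 7.9e-06 and 3.6e-06). cut-3, the neighbour on the other side, was at or below 0.514 CPM in every library. The expected counts of F22B5.5 in egl-9(lf), 39.59 and 37.64, were not whole. Nor were those of F22B5.6, the gene beyond it, at 85.41 and 46.36, so reads may have been divided between them. F22B5.6 went from 2.3 and 3.48 CPM in the wild type to 5.12 and 3.46 CPM in egl-9(lf). The part of such reads in the fall of F22B5.5 was not tested.

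**Figure D4:**
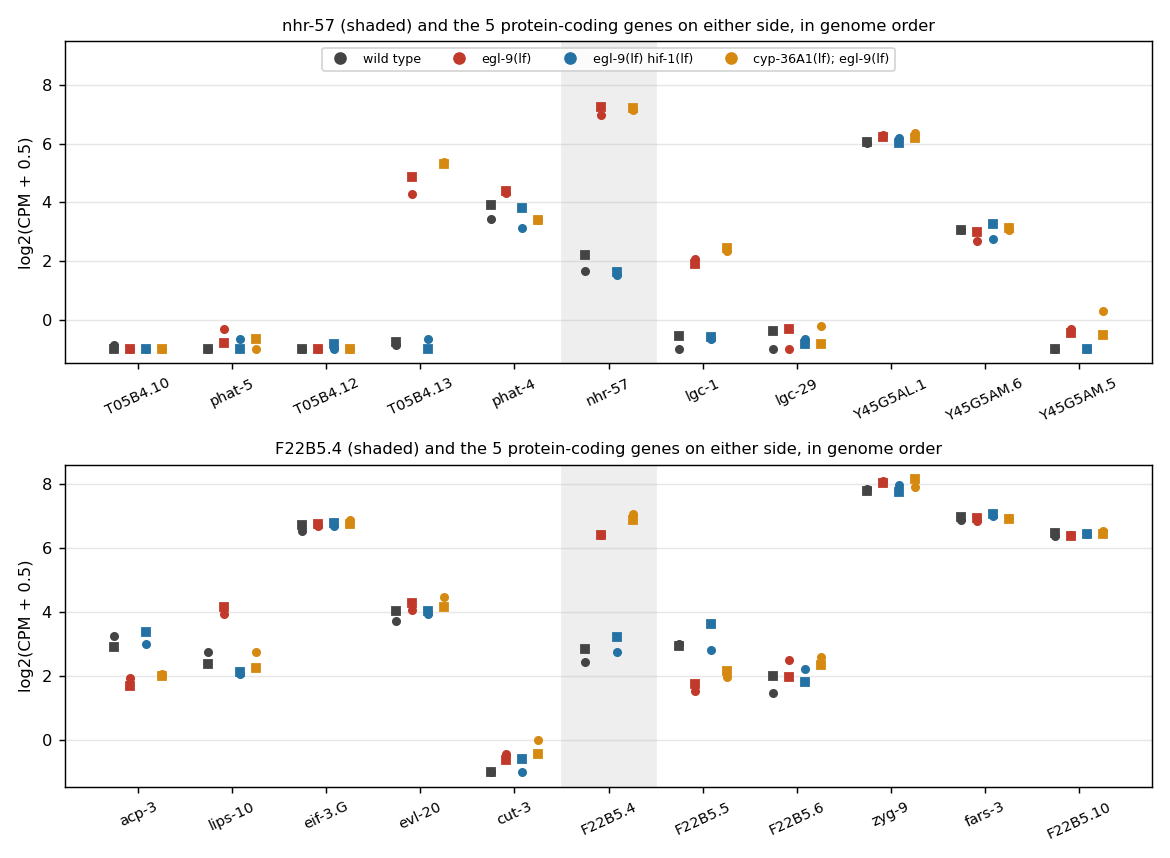
Levels as log2(CPM + 0.5) of nhr-57 (top) and F22B5.4 (bottom), shaded, and the 5 protein-coding genes on either side in genome order, by strain colour, with circles for replicate 1 and squares for replicate 2. T05B4.13 lies higher in egl-9(lf) and the cyp-36A1 double mutant, as does lgc-1, whose level is uncertain because it overlaps nhr-57. acp-3 is lower where F22B5.4 is higher, as is F22B5.5, whose reads may be shared with F22B5.6.

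The deposited counts and FPKM values together give the length by which each count was divided, an average over a gene's transcripts weighted by their estimated share. For F22B5.4 this length was 601.7 and 601.7 nt in the wild type and 601.2 and 602.1 nt in the hif-1 double mutant, but 555.8 and 557.4 nt in egl-9(lf) and 555.6 and 556.6 nt in the cyp-36A1 double mutant. The strains with high F22B5.4 thus had the shorter length in all 4 libraries, by 45.3 nt in the mean. For nhr-57, with 1 annotated transcript, the length stayed within 1367.4 to 1372.8 nt in all 8 libraries.

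F22B5.4 has 2 annotated transcripts in WBcel235. One, of 616 nt in 3 exons, starts 2411 bp upstream of the other, of 573 nt in 2 exons, and both encode the same number of amino acids. They differ by 43 nt in length. The counts were made on ce10 with an older annotation, whose transcript models were not seen here. An average of 2 lengths 43 nt apart cannot move by 45.3 nt, so those models were not these 2. For nhr-57, the annotated transcript of 1559 nt also stood beside a length of 1367.4 to 1372.8 nt. The lengths by which counts were divided therefore cannot be matched directly to annotated transcript lengths. Among 9056 features with at least 50 counts and 1 FPKM in every library, 8 had a length in every library of the wild type and the hif-1 double mutant that exceeded all 4 lengths in the other strains by 5% or more, which is 0.0883%, and 2 had the reverse. Among the 8 were F22B5.4, whose shortest length in the former exceeded its longest in the latter by 7.84%, and egl-9, for which that excess was 6.38%. This length was examined after the data were seen, rests on the transcript shares estimated by RSEM, and was not tested. On the log2(FPKM + 0.5) scale, where this length enters, F22B5.4 differed by 3.98 between egl-9(lf) and the wild type, beside 3.89 from counts.

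**Figure D5:**
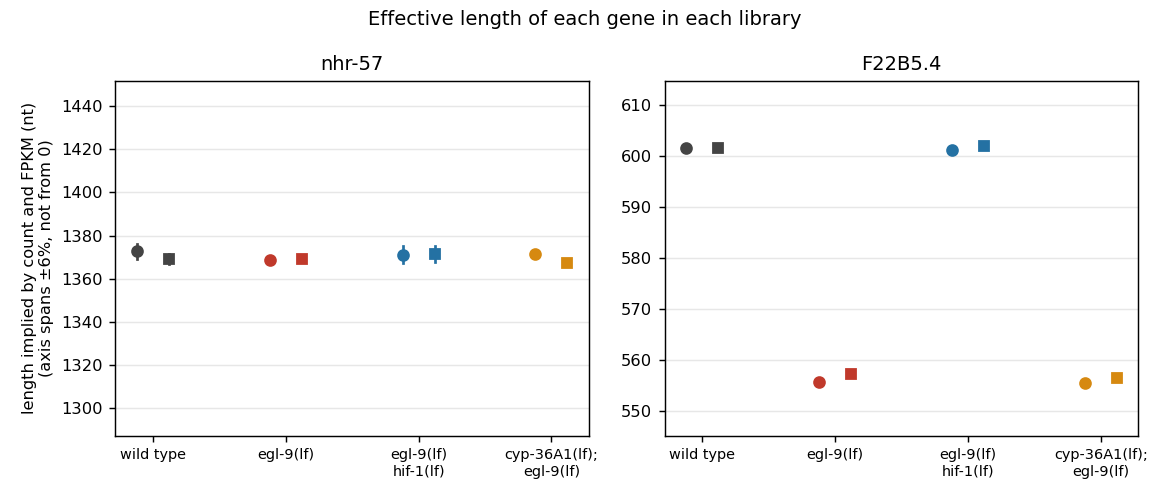
Length in nucleotides implied by the deposited count and FPKM of nhr-57 (left) and F22B5.4 (right) in each library, by strain; bars show the range allowed by rounding of FPKM, and the vertical axes do not start at 0. F22B5.4 is near 602 nt in the wild type and the hif-1 double mutant and near 556 nt in the other strains.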

How the data were processed

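The authors deposited RSEM expected counts and FPKM values per gene for 8 libraries, made from single-end reads on the ce10 build with RSEM 1.2.15 and Bowtie 1.0.1 per the submitters' processing notes; the deposited FPKM divide each expected count by effective length and library total. Expected counts were rounded to whole numbers (36.1% of those above 0 were not whole). Gene names came from RefSeq locus tags, which matched 44080 of 45461 features. Features with a rounded count above 0 in any library were fitted in one model with a mean per strain in edgeR 4.0.16 (R 4.3.3), using TMM, estimateDisp, glmQLFit with default options and glmQLFTest. Benjamini-Hochberg adjustment ran over all 21372 features, and calls were made at an adjusted p under 0.05. Prior degrees of freedom were infinite in the default fit and 7.8 in the revised one. DESeq2 1.42.0 and limma 3.58.1, the latter on log2(FPKM + 0.5), were alternatives, and the edgeR script was tested on simulated data.

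The genes and lists were chosen with earlier results of these data known. Named genes were the pair, the targeted genes, the HIF-1 lists, nearest neighbours, nhr-46, the 3 nhr genes with the largest called rise and fall, and the 5 most similar profiles; T05B4.13, lips-10 and acp-3 were named after their values were seen, as were the features of the length analysis. Replicates are separate biological samples per the labels. Deviations of same-numbered samples correlated at 0.127 to 0.355 in all 6 strain pairs, so the numbers were taken as pairing the samples. The main fit nevertheless held no replicate block, and results with the block are given below. Intervals on counts cover counting error only. No sequence is printed.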

Additional observations from a re-analysis of the deposited data

How the results depend on the processing

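The direction and call of both genes held under all 24 alternatives in egl-9(lf) against the wild type (nhr-57 4.95 to 5.69, F22B5.4 3.67 to 4.08 on the log2 scale), in the hif-1 double mutant against egl-9(lf) (-5.89 to -5.25 and -3.76 to -3.25) and in the cyp-36A1 double mutant against the wild type and against the hif-1 double mutant. Across all 6 comparisons, 276 alternative values kept both, 10 lost a call, 1 gained one and 1 changed sign. For F22B5.4 in the cyp-36A1 double mutant against egl-9(lf), the call was lost with filterByExpr (0.57), the revised spread estimate (0.56, with or without the replicate block) and limma on FPKM at each pseudocount and filter (0.49), and leaving out 1 library gave 0.49 to 0.65. For nhr-57 the same comparison ran from -0.02 to 0.21 with 1 library left out, turning negative only without egl-9(lf) replicate 1. F22B5.4 in the hif-1 double mutant against the wild type ran from 0.14 to 0.64 and was called without replicate 1 of the hif-1 double mutant. The cause of these differences was not tested.

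Fitting the replicate number as a block changed no call on either gene: in egl-9(lf) against the wild type, nhr-57 was at 5.4 and F22B5.4 at 3.89 with the replicate block, and in the cyp-36A1 double mutant against egl-9(lf) at 0.08 and 0.56. The block moved the count of called nhr genes from 27 to 41 in the cyp-36A1 double mutant against the hif-1 double mutant, and to 1 in the hif-1 double mutant against the wild type, where edgeR and DESeq2 called 0 without it and 8 had an unadjusted p under 0.05.

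Counts in the lists moved more, with 94 over 1.5 times off and 482 within it. The following are counts of called genes. HIF-1-induced genes in the cyp-36A1 double mutant against egl-9(lf) were 2, with 0 under filterByExpr, DESeq2 and limma, 1 with at least 2 counts or the revised estimate, and 1 to 3 with 1 library left out. In the hif-1 double mutant against the wild type they were 1, with 0 under those filters, the revised estimate with or without the block, the 2 strains alone and limma, and 1 to 2 with 1 library left out, as for the pathway list. Neighbours were 3 in the cyp-36A1 double mutant against egl-9(lf), with 1 under filterByExpr and limma and 2 to 3 leaving out 1 library, and 7 against the wild type, with 4 under filterByExpr, DESeq2, limma or an adjusted p of 0.01, 3 under limma without a filter, and 2 to 8 leaving out 1 library.

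Called nhr genes in egl-9(lf) against the wild type were 36, with 21 by DESeq2, 20 or 21 by limma and 23 to 44 leaving out 1 library. In the hif-1 double mutant against egl-9(lf) they were 36, with 18 at an adjusted p of 0.01, 20 under filterByExpr or the revised estimate, 23 with all features or the 2 strains alone, 13 by DESeq2, 12 or 15 by limma and 20 to 36 leaving out 1 library. In the cyp-36A1 double mutant against egl-9(lf) they were 16, with 10 at 0.01 or at least 2 counts, 6 under filterByExpr or the revised estimate, 7 by DESeq2, 4 or 5 by limma and 10 to 21 leaving out 1 library. Against the wild type they were 40, with 20 at 0.01 or the revised estimate, 24 under filterByExpr, 26 with at least 2 counts, 23 with all features, 12 by DESeq2, 7 or 15 by limma and 15 to 49 leaving out 1 library. Against the hif-1 double mutant they were 27, with 17 at 0.01, filterByExpr or the revised estimate, 12 by DESeq2, 7, 9 or 10 by limma and 19 to 35 leaving out 1 library. In the hif-1 double mutant against the wild type, 0 to 3 were called leaving out 1 library.

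With 2 libraries per strain, each gene's own spread is poorly known, and low levels rest on 38 to 163 counts per library.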
